A study of Mus musculus with 24 samples.

Results

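The comparison set 6 tumours from mice given brequinar (BRQ) with an IgG2a control antibody (BRQ+IgG2a) against 6 tumours from mice given the IgG2a antibody alone (IgG2a). These are 12 of the 24 tumours of the series, chosen by their treatment labels. All were D4M melanomas in C57BL/6 wild-type mice, all agents were injected intraperitoneally, and each tumour gave 1 RNA library. The other 12 tumours, 6 from mice given brequinar with an anti-PD1 antibody (BRQ+PD-1) and 6 given that antibody alone (PD-1), formed a second brequinar comparison that shares no tumour with the first. The design text names the effect of brequinar and anti-PD1 on the tumour environment as the question. The sources used here do not give the brequinar dose, its schedule, the tumour site or the number of mice behind a library, and p-values measure the spread between tumours.

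Brequinar inhibits dihydroorotate dehydrogenase (Dhodh), an enzyme of the inner mitochondrial membrane that makes orotate for de novo pyrimidine synthesis. That pathway supplies UTP and CTP for RNA and DNA, UDP-sugars for glycosylation, and CDP-choline for phosphatidylcholine. D4M is a mouse melanoma line from a model with an activated Braf oncogene, which drives growth through the MAPK pathway.

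Library totals ran from 21.57 to 28.45 M counts (M, mega) in BRQ+IgG2a and from 22.83 to 29.39 M counts in IgG2a. The means were 24.1 ± 2.50 M in BRQ+IgG2a and 27.5 ± 2.51 M in IgG2a (SD, n = 6 each; exact two-sided permutation p = 0.0455). Mitochondrial transcripts took 1.53 ± 0.278% of counts in BRQ+IgG2a and 1.53 ± 0.279% in IgG2a (exact permutation p = 0.98). Skeletal muscle transcripts set 3 of the 12 libraries apart, with Acta1 at 4469 CPM (counts per M library counts) in BRQ+IgG2a replicate 4, and at 4554 and 14070 CPM in IgG2a replicates 2 and 3. BRQ+IgG2a replicate 5 stood apart in another way: the proliferation marker gene Mki67 was at 124 CPM there and at 265 CPM or more in the other 5 tumours of its group. The counts of called genes and several of the lists are given with and without them.

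The tumours carried few transcripts of the pigment programme. No read of Tyr or Dct, which encode melanin-synthesis enzymes, was counted in any of the 12 libraries. Tyrp1 and Mlana reached at most 0.0707 and 0.172 CPM, and Sox10, a neural crest factor of melanocytes, at most 1.31 CPM. The keratin genes Krt5 and Krt14 had at most 0.0351 CPM. Of markers of undifferentiated mesenchymal-like melanoma, Axl and Prrx1 had medians of 872 and 601 CPM in BRQ+IgG2a and 811 and 512 CPM in IgG2a. Aqp1 and Twist1 had 965 and 135.4 CPM in BRQ+IgG2a and 1233 and 129.5 CPM in IgG2a. Ngfr was near 0, with medians of 0.413 CPM in BRQ+IgG2a and 0.338 CPM in IgG2a. Which cells of the tumours held these transcripts was not tested. These marker levels are CPM without TMM scaling, and all later CPM values have it. Of the melanocyte list, the transcription factor gene Pax3 had medians of 16.6 CPM in BRQ+IgG2a and 20.7 CPM in IgG2a, and the receptor gene Kit 14.3 CPM in BRQ+IgG2a and 11.9 CPM in IgG2a. The melanin-synthesis markers were thus at or near 0 while some melanocyte genes were detected, and the bulk tumours also held fibroblast, endothelial and immune transcripts. In bulk RNA, fewer cells of a type and less RNA per cell cannot be told apart.

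Many more genes rose under brequinar than fell. Of 16029 genes tested by edgeR's quasi-likelihood test, 554 were called at an adjusted p under 0.05 (3.46%), of which 475 rose (2.96%) and 79 fell (0.493%), and 2369 genes had an unadjusted p under 0.05. Rises had a median log2 fold change of 1.13 and falls one of -0.58, so the falls were mostly modest: 23 of them reached 2-fold, against 283 rises. All 6 BRQ+IgG2a tumours lay below all 6 IgG2a tumours for 32 of the falls, and above them for 164 of the rises. Over all genes tested, 0.518% and 1.29% separated in these directions. Of the rises, 110 belong to lists of T cell, cytotoxic, checkpoint, interferon, antigen presentation and dendritic cell or B cell genes (186 genes tested), and 365 to none of them. No fall belongs to those lists. The number of falls depended on which tumours entered. It was 26, 45 and 46 without BRQ+IgG2a replicates 6, 1 and 3, and 34, 44 and 46 without IgG2a replicates 6, 5 and 3, each taken out alone. Without BRQ+IgG2a replicate 5, 366 genes fell (2.25% of 16285 tested, 77 of the 79 among them) and 813 rose (4.99%, 472 of the 475 among them). Without the 4 muscle-rich libraries of the series, 80 fell (0.494%, 45 of the 79 among them) and 577 rose (3.57%, 398 of the 475 among them).

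The falls with the smallest adjusted p were in genes of unrelated function. In what follows, the 3 CPM values of a group are the lowest, the median and the highest of its 6 tumours, and a log2 fold change is given with its SE and the edgeR adjusted p. Atg9b (ENSMUSG00000038295), a paralogue of the autophagy lipid scramblase gene Atg9a, had 13.5, 23.6 and 33.1 CPM in BRQ+IgG2a tumours, against 37.2, 63.5 and 116 CPM in IgG2a tumours. Npl (ENSMUSG00000042684), the lyase that breaks down sialic acid, had 1.65, 4.12 and 6.83 CPM in BRQ+IgG2a and 7.43, 14.95 and 25.1 CPM in IgG2a. Msln (ENSMUSG00000063011), which encodes the cell-surface glycoprotein mesothelin, had 11.4, 21.7 and 24.3 CPM in BRQ+IgG2a and 28.0, 43.9 and 50.3 CPM in IgG2a. For all 3 genes every BRQ+IgG2a tumour was below every IgG2a tumour. The log2 fold changes were -1.60 ± 0.27 for Atg9b (edgeR adjusted p 0.00147), -1.92 ± 0.36 for Npl (0.00327) and -1.04 ± 0.21 for Msln (0.00462). Leaving out any 1 of the 12 libraries kept the call of each. In the other 12 tumours, BRQ+PD-1 against PD-1, they were called lower as well, at -1.37 ± 0.27, -1.42 ± 0.35 and -1.70 ± 0.21 (edgeR adjusted p 0.00622, 0.0225 and 0.00015).

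Adh7, Rbp2 and Rab15 were among the other falls. Adh7, an alcohol dehydrogenase that oxidises retinol, had 3.47, 5.10 and 5.66 CPM in BRQ+IgG2a and 8.47, 11.04 and 19.6 CPM in IgG2a. Rbp2, a cellular retinol-binding protein gene, had 1.54, 2.11 and 2.89 CPM in BRQ+IgG2a, against 3.11, 3.998 and 5.93 CPM in IgG2a. Rab15, a small GTPase gene of endosomal recycling, had 0.72, 2.64 and 5.02 CPM in BRQ+IgG2a and 6.04, 10.6 and 13.5 CPM in IgG2a. The groups did not overlap for any of the 3. Adh7 changed by -1.32 ± 0.34 (edgeR adjusted p 0.0276), Rbp2 by -0.93 ± 0.20 (0.0114) and Rab15 by -1.73 ± 0.38 (0.0117). Adh7 was called in 7 of 12 fits that left out 1 library (adjusted p 0.0819 without BRQ+IgG2a replicate 6) and was not called without the 4 muscle-rich libraries of the series (edgeR adjusted p 0.0566). Adh7 and Rbp2 were called lower in BRQ+PD-1 against PD-1 too, at -1.74 ± 0.34 and -0.85 ± 0.20 (edgeR adjusted p 0.00589 and 0.0185), while Rab15 had -1.01 ± 0.37 there (0.117).

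Other called falls were smaller, and a small fall passes the test only where the tumours vary little. Slc39a13, the zinc transporter ZIP13, had 60.0, 66.8 and 74.1 CPM in BRQ+IgG2a and 76.9, 86.3 and 93.1 CPM in IgG2a, a log2 fold change of -0.34 ± 0.07 (edgeR adjusted p 0.00663). Aif1l, an actin-bundling protein gene, changed by -0.63 ± 0.14 (0.00985), and Bok, of the Bcl-2 family of apoptosis regulators, by -0.65 ± 0.14 (0.011). Tmem201, an inner nuclear membrane protein gene, changed by -0.54 ± 0.12 (0.0117), and Olfml2b, which encodes an extracellular olfactomedin-like protein, by -0.50 ± 0.11 (0.0131). No tumour of BRQ+IgG2a reached the lowest IgG2a tumour for these 5 genes. Rapgef3, the cAMP-activated Rap1 exchange factor EPAC1, had 33.3, 43.9 and 76.3 CPM in BRQ+IgG2a and 60.4, 69.3 and 79.6 CPM in IgG2a. Its groups overlapped through BRQ+IgG2a replicate 5, the highest of its group. Rapgef3 changed by -0.58 ± 0.13 (edgeR adjusted p 0.0123), and by -0.77 without that tumour (9.4e-05).

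Slc25a29, a mitochondrial carrier of basic amino acids, had 7.201, 8.499 and 10.7 CPM in BRQ+IgG2a and 10.2, 12.4 and 13.4 CPM in IgG2a (-0.51 ± 0.12, edgeR adjusted p 0.0139). Lsm14b, an RNA-binding protein gene, changed by -0.34 ± 0.08 (0.0148), and Glipr1, of the CAP family of secreted proteins, by -0.52 ± 0.12 (0.015). The groups overlapped for each of the 3. Lsm14b was also called lower in BRQ+PD-1 against PD-1 (-0.31 ± 0.08, edgeR adjusted p 0.0229), Glipr1 had -0.38 ± 0.12 (0.0682) and Slc25a29 -0.03 ± 0.12 (0.925).

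**Figure D1:**
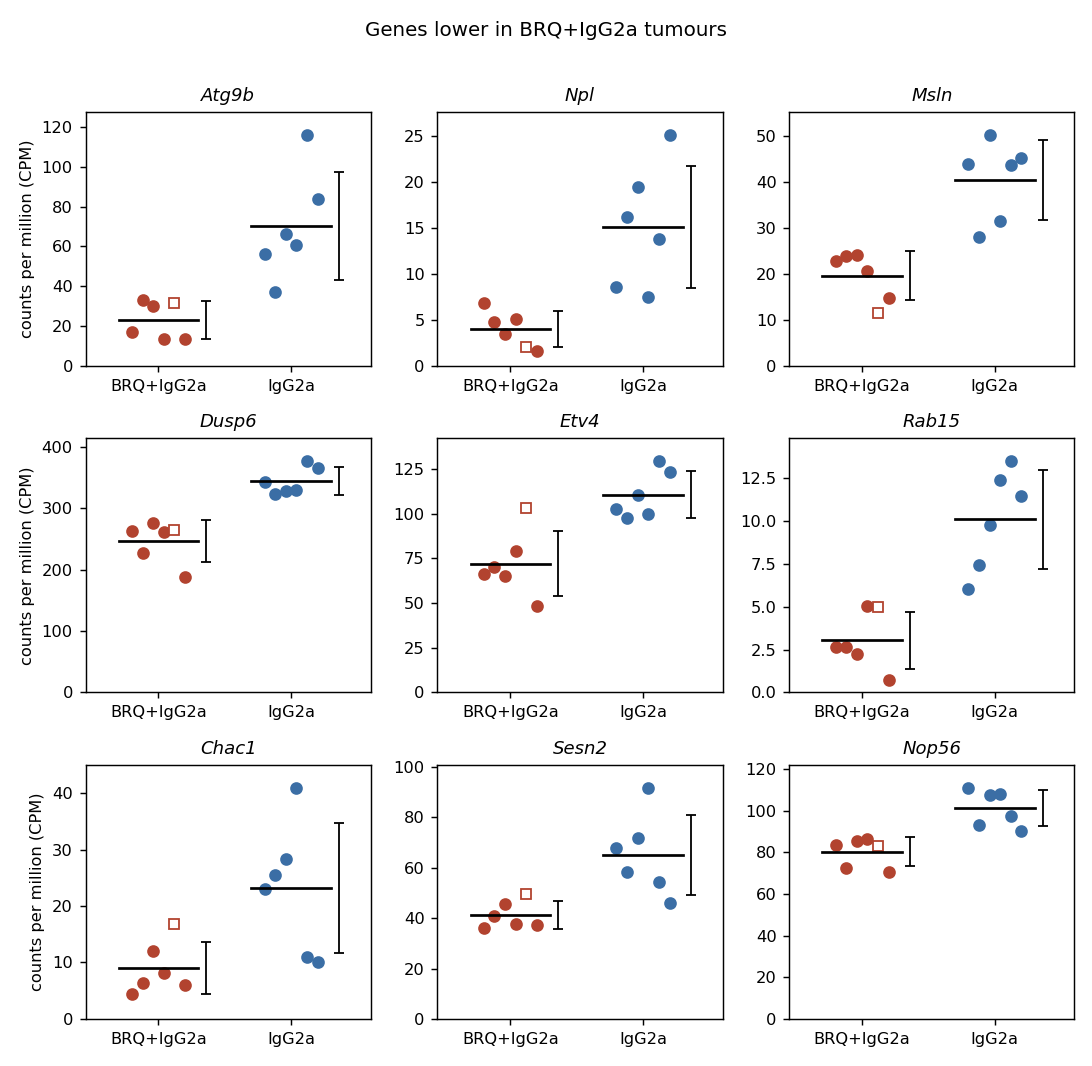
Levels of 9 genes that fell, in CPM on the vertical axis of each panel, with 1 point per tumour, BRQ+IgG2a (red) left of IgG2a (blue); horizontal lines are group means, error bars SD (n = 6 each), and the open square is BRQ+IgG2a replicate 5. Atg9b, Npl, Msln, Dusp6, Rab15 and Nop56 do not overlap between groups, and Etv4, Chac1 and Sesn2 do.

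Grb10 and Fhod1 fell in BRQ+IgG2a and not in the other brequinar comparison. Grb10, an imprinted adaptor that restrains insulin receptor signalling, had 38.5, 66.2 and 78.1 CPM in BRQ+IgG2a and 81.6, 97.2 and 139 CPM in IgG2a, without overlap. Its log2 fold change was -0.71 ± 0.16 (edgeR adjusted p 0.0117) here and 0.48 ± 0.16 (0.0771) in BRQ+PD-1 against PD-1. Fhod1, a formin of actin filaments, had -0.31 ± 0.07 (0.0117) here and 0.18 ± 0.07 (0.135) there. The test of the difference between the comparisons called neither, at an interaction adjusted p of 0.206 for each. That is the lowest adjusted p of the interaction over all genes.

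Output genes of the MAPK pathway were mostly lower in 5 of the 6 BRQ+IgG2a tumours, and 2 of them fell. The list holds genes that ERK signalling induces, many of them feedback inhibitors of the pathway. Of 24 tested, 2 fell and 1 rose, against 0.493% and 2.96% of all genes. The log2 fold change was below 0 for 20 of the 24, against 51.5% of all genes, and the list's median was -0.13, against -0.0073 over all genes. Dusp6, the phosphatase that switches ERK off, had 188, 262 and 277 CPM in BRQ+IgG2a and 323, 337 and 377 CPM in IgG2a. The groups did not overlap, and the change was -0.48 ± 0.10 (edgeR adjusted p 0.00737). Etv4, an ETS transcription factor gene, had 48.4, 68.0 and 103 CPM in BRQ+IgG2a and 97.8, 106 and 129 CPM in IgG2a. Only BRQ+IgG2a replicate 5, at 103 CPM, reached into the IgG2a range, and Etv4 changed by -0.62 ± 0.13 (edgeR adjusted p 0.00801). Dusp6 and Etv4 kept their calls whichever of the 12 libraries was left out. In BRQ+PD-1 against PD-1 they had -0.32 ± 0.10 and -0.30 ± 0.13 (edgeR adjusted p 0.0633 and 0.175). The rise was in Spry1, a receptor tyrosine kinase inhibitor, at 24.97, 29.7 and 34.5 CPM in BRQ+IgG2a and 16.5, 19.5 and 21.8 CPM in IgG2a. Spry1 changed by 0.60 ± 0.15 (edgeR adjusted p 0.0227), and was not called without the muscle-rich libraries (0.117).

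BRQ+IgG2a replicate 5 held the highest level of its group for 17 of the 24 MAPK genes. On the log2(CPM + 0.5) scale the list's median difference from the IgG2a mean was 0.45 in that tumour, and -0.49 to -0.19 in the other 5 of its group. IgG2a tumours lay at -0.24 to 0.32, so the groups overlapped. The 0.32 was that of IgG2a replicate 4, which held the highest level of its group for 15 of the 24 genes. Egr1, an immediate early transcription factor gene, had 369 CPM in BRQ+IgG2a replicate 5. Its range was 43.5 to 369 CPM over that group, against 103 to 297 CPM in IgG2a. Dusp4, a nuclear ERK phosphatase gene, had 197 CPM in BRQ+IgG2a replicate 5. The median of that group was 31.7 CPM, against 29.9, 52.7 and 101 CPM in IgG2a. Over all 6 tumours, Egr1 and Dusp4 had log2 fold changes of -0.42 ± 0.44 and -0.03 ± 0.47 (edgeR adjusted p 0.729 and 0.988). Without replicate 5 they were -1.17 and -1.01 (0.0411 and 0.0415). In that fit 9 of the 24 fell (against 2.25% of all genes), namely Dusp4, Dusp5, Dusp6, Egr1, Epha2, Etv4, Fosl1, Junb and Phlda1, and the median was -0.32. Dusp5, Epha2 and Fosl1 were also called lower in BRQ+PD-1 against PD-1, at -1.03, -0.60 and -1.06 (edgeR adjusted p 0.0149, 0.00973 and 0.0185). Of the whole list 4 fell and 2 rose there, against 2.66% and 2.38% of all genes, and 13 of the 24 were below 0, against 48.1% of all genes. The rises there were Spry1 (0.62 ± 0.15, edgeR adjusted p 0.0188) and Etv1, an ETS factor gene (0.57 ± 0.16, 0.0344).

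**Figure D2:**
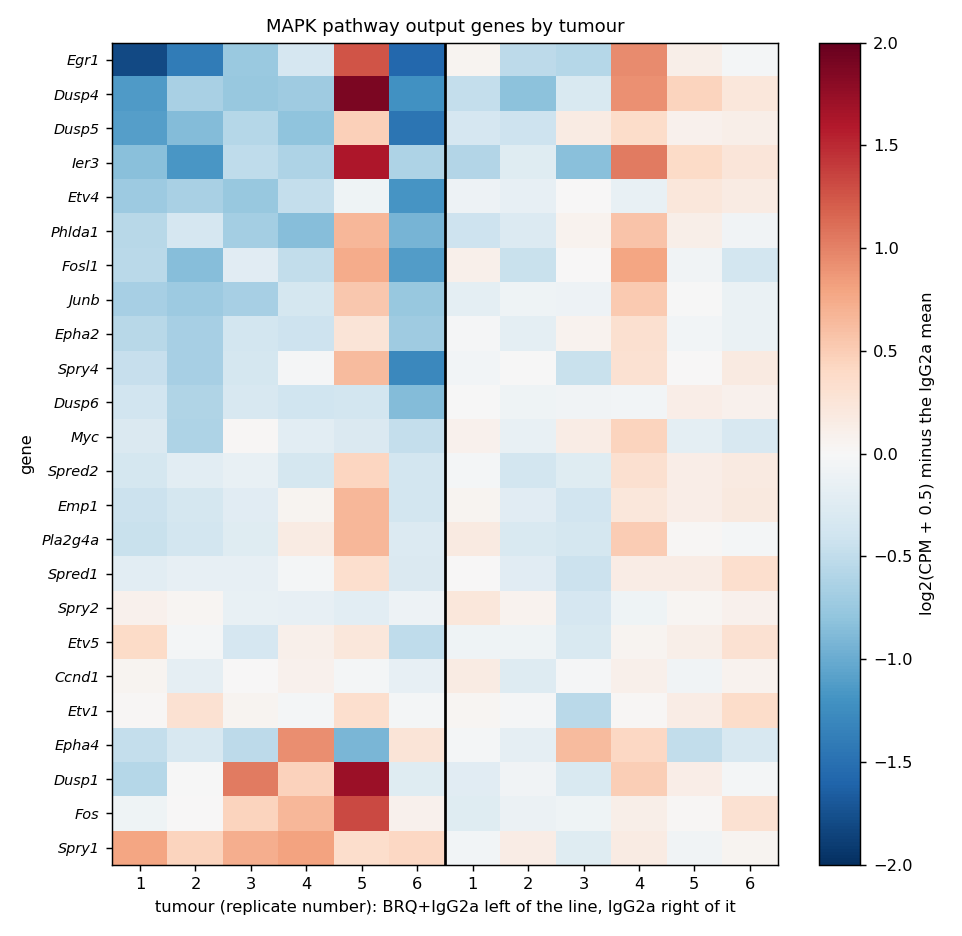
Each of the 24 MAPK output genes (rows) in each tumour (columns, replicate numbers 1 to 6, BRQ+IgG2a left of the black line and IgG2a right of it), coloured by log2(CPM + 0.5) minus the IgG2a mean, blue for lower and red for higher. Rows are ordered by the change without BRQ+IgG2a replicate 5, whose column is red for Egr1 and Dusp4 where the other 5 columns of its group are blue.

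Genes of the integrated stress response, which the transcription factor ATF4 switches on when amino acids run short or translation is checked, were mostly lower. Of 38 tested, 3 fell and none rose, against 0.493% and 2.96% of all genes, 31 were below 0, against 51.5% of all genes, and the median log2 fold change was -0.26. Without BRQ+IgG2a replicate 5, 5 fell (against 2.25%) and 36 were below 0, with a median of -0.33. Without the muscle-rich libraries 1 fell (against 0.494%) and 33 were below 0. Chac1, a glutathione-degrading enzyme gene, had 4.42, 7.26 and 16.9 CPM in BRQ+IgG2a, against 10.1, 24.2 and 40.9 CPM in IgG2a. Sesn2, a stress-induced inhibitor of mTORC1, had 36.1, 39.2 and 49.7 CPM in BRQ+IgG2a and 45.9, 63.1 and 91.7 CPM in IgG2a. Adm2, an adrenomedullin-type peptide gene, had 0.296, 0.456 and 1.27 CPM in BRQ+IgG2a and 0.887, 1.95 and 5.97 CPM in IgG2a. The groups overlapped for all 3 genes. BRQ+IgG2a replicate 5 was the highest of its group for each, and so was IgG2a replicate 4 of its own group. Chac1 changed by -1.37 ± 0.37 (edgeR adjusted p 0.0397), Sesn2 by -0.66 ± 0.17 (0.0339) and Adm2 by -1.98 ± 0.49 (0.0227), each below the IgG2a mean in 6 of 6 tumours. Chac1 was called in 3, Sesn2 in 5 and Adm2 in 9 of the 12 fits that left out 1 library (highest edgeR adjusted p 0.11, 0.0958 and 0.0881). For Sesn2 and Adm2 that highest p came without IgG2a replicate 4, and for Chac1 without BRQ+IgG2a replicate 6. Neither Chac1 nor Sesn2 was called without the muscle-rich libraries (0.167 and 0.0898). The transcript of Atf4 itself had 181, 199 and 362 CPM in BRQ+IgG2a and 208, 310 and 460 CPM in IgG2a, a change that did not pass the test (-0.40 ± 0.20, edgeR adjusted p 0.35). In BRQ+PD-1 against PD-1, 5 of the 38 fell (against 2.66% of all genes), the median was -0.36, and Chac1 and Sesn2 were called lower at -1.48 ± 0.37 and -0.94 ± 0.17 (edgeR adjusted p 0.0227 and 0.00456).

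Fgf21, a secreted metabolic hormone that ATF4 induces, was the fall with the second largest fold, and is named here after its values were seen because its level was under 1 CPM. It had 0, 0.128 and 0.457 CPM in BRQ+IgG2a, against 0.367, 0.723 and 1.53 CPM in IgG2a. The tumours overlapped slightly, and the change was -2.37 ± 0.63 (edgeR adjusted p 0.0354), with -2.78 ± 0.67 (0.0184) in BRQ+PD-1 against PD-1. The promoter windows of the 2 falls that held the motif of ATF4 with C/EBP factors, TGATGNAA on either strand, are shown because both genes are known targets of that factor. They are RefSeq sequences of build GRCm38.p6, 5′ to 3′ on the gene's strand, from 250 bases before to 50 after the start. The Chac1 window is chr2:119350992-119351291 (+ strand) and the Fgf21 window chr7:45615441-45615740 (- strand). Capitals mark the motif, read here as TTGCATCA on the opposite strand, and in Fgf21 also an E-box (CACGTG).
Chac1: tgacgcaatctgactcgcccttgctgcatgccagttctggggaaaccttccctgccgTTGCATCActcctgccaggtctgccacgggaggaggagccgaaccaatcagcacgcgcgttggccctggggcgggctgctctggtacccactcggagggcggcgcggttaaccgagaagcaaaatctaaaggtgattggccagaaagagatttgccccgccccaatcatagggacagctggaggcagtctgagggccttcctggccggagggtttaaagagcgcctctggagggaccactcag
Fgf21: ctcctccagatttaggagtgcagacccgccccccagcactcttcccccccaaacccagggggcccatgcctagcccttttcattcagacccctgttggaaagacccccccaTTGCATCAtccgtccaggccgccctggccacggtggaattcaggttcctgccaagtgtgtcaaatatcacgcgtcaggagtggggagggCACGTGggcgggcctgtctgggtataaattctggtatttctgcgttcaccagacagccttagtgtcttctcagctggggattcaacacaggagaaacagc
The motif lay at positions -193 to -186 relative to the start of Chac1 and -139 to -132 relative to that of Fgf21, and the E-box at -50 to -45 in Fgf21. A window was on record for 64 of the 79 falls. TGATGNAA was in 2 of them (3.12%), against 2.83% of 11409 windows of genes tested, and CACGTG in 4 (6.25%), against 11.2%. A match is a description of the letters.

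Ribosome biogenesis genes were slightly lower, and 1 of 44 fell. Nop56, a core protein of the particles that methylate ribosomal RNA, had 70.8, 83.4 and 86.6 CPM in BRQ+IgG2a and 90.4, 103 and 111 CPM in IgG2a. The groups did not overlap, and Nop56 changed by -0.33 ± 0.08 (edgeR adjusted p 0.0209). It was called in 8 of the 12 fits that left out 1 library (0.0694 without BRQ+IgG2a replicate 6). Of the 44 genes 38 were below 0, against 51.5% of all genes, with a median of -0.14. Without BRQ+IgG2a replicate 5, 6 of the 44 fell (against 2.25% of all genes), 40 were below 0 and the median was -0.21. Polr1b, a subunit of the RNA polymerase that transcribes ribosomal RNA, had -0.27 ± 0.08 (edgeR adjusted p 0.0893), and Nop2, a ribosomal RNA methyltransferase gene, -0.38 (0.066). Of the 44 genes, 20 fell in BRQ+PD-1 against PD-1, against 2.66% of all genes, with a median of -0.34. Among them were Nop56 (-0.50 ± 0.08), Nop2 (-0.76) and Polr1b (-0.43 ± 0.09). Of 21 aminoacyl-tRNA synthetase genes none was called, 17 were below 0 and the median was -0.12. Myc, a known driver of ribosome biogenesis, had 48.4, 61.0 and 76.1 CPM in BRQ+IgG2a and 59.5, 73.4 and 102 CPM in IgG2a. The groups overlapped and Myc did not pass the test (-0.32 ± 0.12, edgeR adjusted p 0.189), while in BRQ+PD-1 against PD-1 it fell (-0.79 ± 0.13, 0.00134).

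Secreted ligands and LIM-domain proteins appeared among the other falls, and these genes were picked after their values were seen. Wnt7b, a WNT ligand gene, had 33.2, 53.5 and 96.7 CPM in BRQ+IgG2a and 62.6, 96.9 and 104 CPM in IgG2a, with overlap, and changed by -0.70 ± 0.19 (edgeR adjusted p 0.0397). Ntn4, a netrin of basement membranes, changed by -0.73 ± 0.18 (0.0229), Gdf11, a TGF-beta family ligand, by -0.43 ± 0.10 (0.0224), and Dhh, a hedgehog ligand, by -0.55 ± 0.14 (0.0311). Among LIM-domain genes of the actin cytoskeleton, Pdlim7 changed by -0.66 ± 0.18 (edgeR adjusted p 0.036), Fhl2 by -0.56 ± 0.16 (0.044) and Fhl3 by -0.43 ± 0.11 (0.0238). Wnt7b, Fhl2 and Fhl3 were also called lower in BRQ+PD-1 against PD-1, at -0.76 ± 0.19, -0.63 ± 0.16 and -0.43 ± 0.11 (edgeR adjusted p 0.0227, 0.0207 and 0.0222). Dhh had 0.23 ± 0.14 there (0.349).

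Prss22, Plet1 and Rassf9, large falls, were called in few of the fits that left out 1 library. Prss22, a serine protease gene, had 0.141, 0.787 and 1.83 CPM in BRQ+IgG2a and 1.20, 3.22 and 4.53 CPM in IgG2a. Prss22 changed by -1.78 ± 0.50 (edgeR adjusted p 0.0479), with 0.12 ± 0.48 in BRQ+PD-1 against PD-1. Plet1, a surface protein gene of epithelial progenitors, changed by -1.59 ± 0.42 (0.0341), and Rassf9, which encodes a Ras-association protein of endosomes, by -1.38 ± 0.39 (0.0485). All 3 genes overlapped between groups, and they were called in 3, 6 and 3 of these 12 fits. Npl, Rab15 and Fcna, also large falls of genes at a few CPM, were called in 12 of 12. Trim66, a chromatin reader gene, changed by -1.18 ± 0.27 (edgeR adjusted p 0.015) and by -1.21 ± 0.27 in BRQ+PD-1 against PD-1 (0.0135). Trim66 was called in 11 of the 12 fits.

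Other stress and growth lists held few called genes. None was called among 26 genes of the unfolded protein response, 23 of heat shock proteins, 23 of the MYC network and 22 of polyamine and arginine metabolism, with medians from -0.14 to 0.01. In the NRF2 and glutathione list Chac1 was the 1 called of 31. Of the heat shock genes 18 were below 0, and of the NRF2 genes 16, against 51.5% of all genes. Without BRQ+IgG2a replicate 5, where 2.25% of all genes fell and 4.99% rose, 2 unfolded protein response genes fell (Hyou1 and Syvn1), with 24 of 26 below 0 and a median of -0.20. In that fit 2 heat shock genes fell (Chordc1 and Stip1), with 23 of 23 below 0 and a median of -0.22. Of the polyamine and arginine list 2 fell (Sms and Oaz2) and 1 rose, and none of the MYC network was called.

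Tumour-cell programmes other than MAPK output held few called genes. None of 14 melanocyte genes and none of 26 neural crest or undifferentiated melanoma genes was called, with medians of 0.15 and 0.05. The medians were -0.05 and -0.02 without BRQ+IgG2a replicate 5, where 1 melanocyte gene rose and 2 genes of the other list fell, the ectonucleotidase gene Nt5e and Fosl1. Mitf, the melanocyte master regulator, had 11.4, 14.3 and 42.0 CPM in BRQ+IgG2a and 12.5, 14.1 and 17.3 CPM in IgG2a. The 42.0 CPM belonged to replicate 5, and the log2 fold change, 0.36 ± 0.28 (edgeR adjusted p 0.608), was -0.05 without it. In BRQ+PD-1 against PD-1 Mitf was called higher (0.97 ± 0.28, edgeR adjusted p 0.0474), the 1 melanocyte gene called there. It had 14.5 to 52.0 CPM in BRQ+PD-1 and 11.6 to 15.7 CPM in PD-1. Of the neural crest or undifferentiated melanoma list 3 fell and 1 rose there, against 2.66% and 2.38% of all genes. Braf had 44.1, 46.2 and 74.4 CPM in BRQ+IgG2a and 32.5, 48.3 and 56.7 CPM in IgG2a. The groups overlapped, and Braf did not pass the test (0.15 ± 0.16, edgeR adjusted p 0.749). Counts per gene cannot show an allele.

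Proliferation genes did not pass the test. Of 40 genes of S phase and 34 of mitosis none was called, with median log2 fold changes of -0.04 and 0.00087. Mki67 had 124, 326 and 342 CPM in BRQ+IgG2a and 211, 255 and 289 CPM in IgG2a. The lowest value was that of replicate 5, and the other 5 BRQ+IgG2a tumours were above the IgG2a mean. Mki67 had 0.18 ± 0.21 (edgeR adjusted p 0.773), and 0.33 without that tumour (0.29). Without it the medians of the 2 lists were 0.08 and 0.13, again with no gene called. In BRQ+PD-1 against PD-1 they were -0.24 and -0.33, with 1 and 0 genes called lower. There 39 of the 40 S phase genes and 33 of the 34 mitosis genes were below 0, against 48.1% of all genes.

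The PI3K and FOXO list held the rise with the smallest p outside the immune lists. Sesn3, a FOXO-induced sestrin gene, had 130, 184 and 250 CPM in BRQ+IgG2a, against 63.9, 76.4 and 92.6 CPM in IgG2a. The groups were far apart, and Sesn3 changed by 1.27 ± 0.16 (edgeR adjusted p 0.00025), with 1.24 ± 0.16 (0.00015) in BRQ+PD-1 against PD-1. It was the 1 gene called of 20 in its list, whose median was 0.08. Of 32 p53 targets, Sesn2 fell and none rose (median -0.13), and of 18 TGF-beta targets the inhibitor of differentiation gene Id2 rose (0.72 ± 0.15, edgeR adjusted p 0.00581). None of 14 WNT targets was called. With BRQ+IgG2a replicate 5 left out, 5 p53 targets fell and 1 rose (against 2.25% and 4.99% of all genes), and of the PI3K and FOXO list 3 rose and 2 fell. In BRQ+PD-1 against PD-1, 6 of the 32 p53 targets fell and none rose, against 2.66% and 2.38% of all genes. Of them 27 were below 0 there, against 48.1% of all genes, with a median of -0.22.

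**Figure D3:**
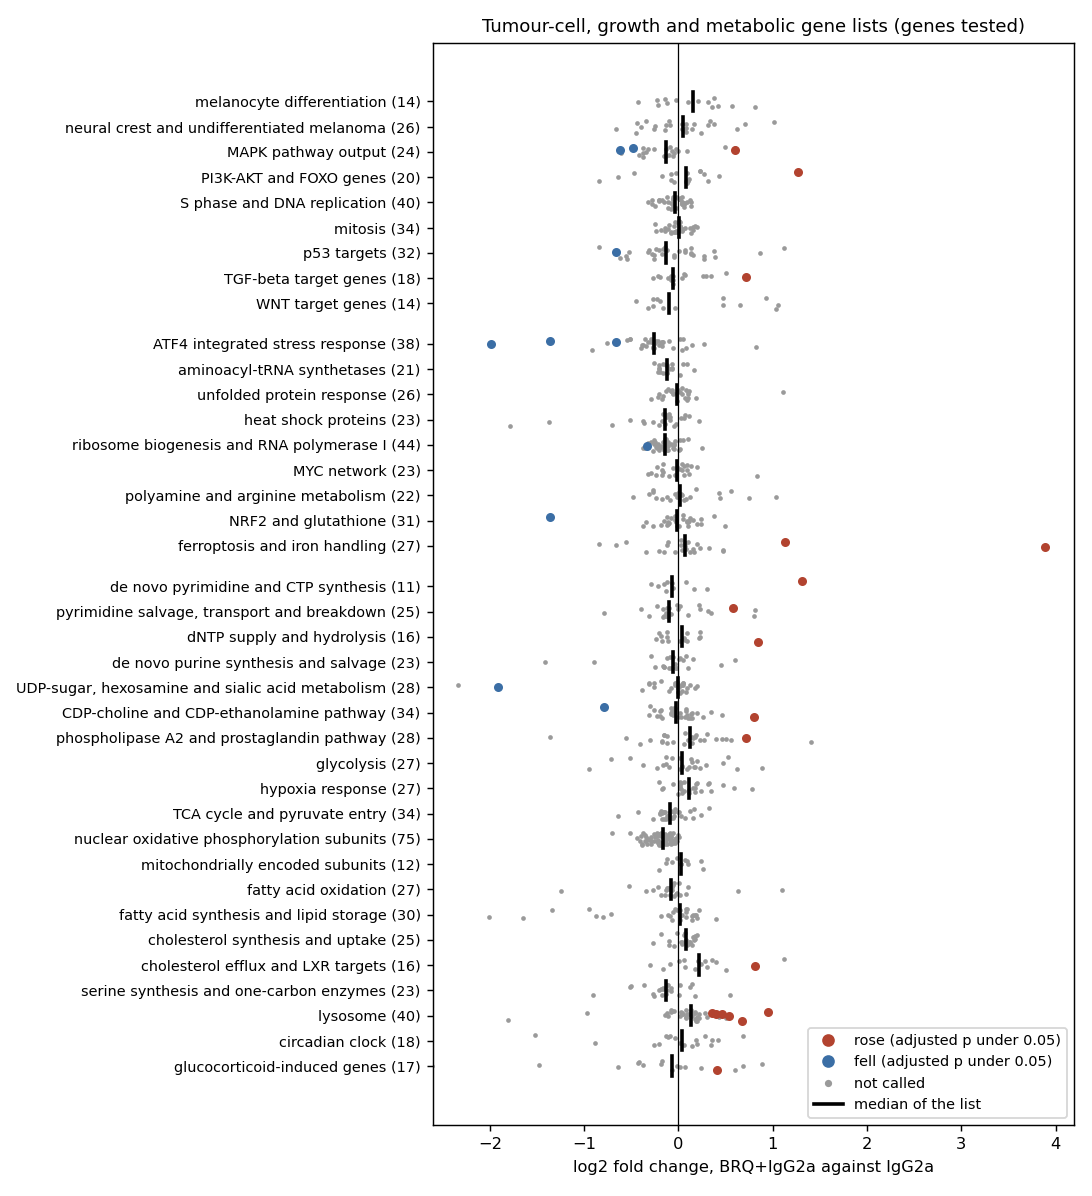
Log2 fold change of BRQ+IgG2a against IgG2a (horizontal axis) for each gene tested of 38 lists of tumour-cell, growth and metabolic genes (vertical axis, number of genes in brackets); red points rose, blue points fell, grey points were not called, and black bars are list medians. The list medians lie between -0.26 (ATF4) and 0.22 (cholesterol efflux), and the oxidative phosphorylation genes sit close together just below 0.

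The transcript of the enzyme that brequinar inhibits did not pass the test. Dhodh (ENSMUSG00000031730) had 11.02, 12.6 and 14.3 CPM in BRQ+IgG2a and 12.02, 13.4 and 17.4 CPM in IgG2a, with overlap and a log2 fold change that missed the test (-0.14 ± 0.11, edgeR adjusted p 0.638). These levels do not measure the activity of the enzyme. Of 11 genes of de novo pyrimidine and CTP synthesis Cmpk2, a mitochondrial UMP-CMP kinase that interferon also induces, rose. Cmpk2 had 13.2, 22.4 and 30.9 CPM in BRQ+IgG2a and 4.66, 7.73 and 18.6 CPM in IgG2a, and changed by 1.31 ± 0.31 (edgeR adjusted p 0.0162). The interferon list, to which Cmpk2 also belongs, had 46 of 61 genes higher with a median of 1.102, and its part in this rise was not tested. Ctps, CTP synthetase, had -0.15 ± 0.11 and Nme1, a nucleoside diphosphate kinase gene, -0.29 ± 0.14 (edgeR adjusted p 0.569 and 0.331). Of 25 genes of pyrimidine salvage, transport and breakdown, Slc29a3, a lysosomal nucleoside transporter gene, rose by 0.58 ± 0.14 (edgeR adjusted p 0.0167). Of 16 dNTP genes, Samhd1, a dNTP hydrolase, rose by 0.84 ± 0.22 (0.0344). Slc29a3 had 39.3 to 74.5 CPM in BRQ+IgG2a and 39.2 to 46.4 CPM in IgG2a. Samhd1 had 115 to 329 CPM in BRQ+IgG2a and 100.3 to 192 CPM in IgG2a. BRQ+IgG2a replicate 5 was the lowest of its group for both, within the IgG2a range. Samhd1 was called in 4 of the 12 fits that left out 1 library (edgeR adjusted p 0.125 without BRQ+IgG2a replicate 6). Without the muscle-rich libraries 0 genes of the salvage list rose, so Slc29a3 was not called. In BRQ+PD-1 against PD-1, Cmpk2, Slc29a3 and Samhd1 were not called. They had 0.37 ± 0.30, 0.14 ± 0.14 and 0.06 ± 0.22 there (edgeR adjusted p 0.505, 0.599 and 0.898).

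Products made from pyrimidine nucleotides were covered by further lists. Of 34 genes of the CDP-choline and CDP-ethanolamine pathway 1 rose and 1 fell, with a median of -0.02. Lpin3, a phosphatidate phosphatase gene, had 2.95, 3.38 and 6.75 CPM in BRQ+IgG2a and 5.63, 6.84 and 8.63 CPM in IgG2a (-0.79 ± 0.22, edgeR adjusted p 0.044). Replicate 5 gave the 6.75 CPM, and Lpin3 was called in 2 of the 12 fits that left out 1 library (0.125 without BRQ+IgG2a replicate 6). Lpcat2, a lysophospholipid acyltransferase known from myeloid cells, had 25.1, 53.5 and 62.5 CPM in BRQ+IgG2a and 24.2, 27.9 and 37.2 CPM in IgG2a (0.80 ± 0.17, 0.00954). Chka, choline kinase alpha, did not pass the test (-0.08 ± 0.12, edgeR adjusted p 0.832). In the list of UDP-sugar, hexosamine and sialic acid genes Npl was the 1 called of 28, and the enzymes that make and activate sialic acid had 0.09 ± 0.08 (Gne), -0.08 ± 0.08 (Nans) and -0.31 (Cmas), none of them called (edgeR adjusted p 0.626, 0.738 and 0.171).

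Umps, which completes UMP synthesis, had 38.5, 45.3 and 59.9 CPM in BRQ+IgG2a and 44.1, 51.3 and 53.9 CPM in IgG2a, with overlap and no call (-0.07 ± 0.12, edgeR adjusted p 0.853). None of 23 purine synthesis and salvage genes was called, with a median of -0.06. In BRQ+PD-1 against PD-1, 3 of the 23 were called lower (2.66% of all genes were), with a median of -0.21. In the phospholipase A2 and prostaglandin list, Ptger4, the prostaglandin E2 receptor EP4, was the 1 called of 28. Ptger4 had 10.2, 14.7 and 22.4 CPM in BRQ+IgG2a and 7.49, 8.96 and 11.9 CPM in IgG2a, with overlap. It rose by 0.72 ± 0.17 (edgeR adjusted p 0.0148) here and by 0.61 ± 0.17 (0.0336) in BRQ+PD-1 against PD-1, and was not called without the muscle-rich libraries (0.0741). Ptgs2, the inducible cyclooxygenase gene of that list, had -0.30 (edgeR adjusted p 0.923).

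Few genes of energy and lipid metabolism were called. Of 75 nuclear genes of oxidative phosphorylation none was called, yet 74 had a log2 fold change below 0, with a median of -0.17, against 51.5% and -0.0073 over all genes. Their summed level was 6449 to 7851 CPM in BRQ+IgG2a and 6464 to 9928 CPM in IgG2a, and the tumours overlapped. The skeletal muscle list, none of whose genes was called, had a median of -1.68. Without the muscle-rich libraries, the oxidative phosphorylation median was -0.02, with 46 genes below 0, and the muscle median was 1.36. The 12 mitochondrially encoded subunits had a median of 0.03. No gene was called among 27 of glycolysis, 34 of the TCA cycle, 27 of fatty acid oxidation, 30 of fatty acid synthesis and 25 of cholesterol synthesis, with medians from -0.09 to 0.08. Of 16 cholesterol efflux genes Abcg1, a sterol exporter of macrophages, rose, at 28.1, 39.7 and 47.9 CPM in BRQ+IgG2a and 16.4, 20.4 and 28.1 CPM in IgG2a (0.82 ± 0.14, edgeR adjusted p 0.00171). Of 23 serine and one-carbon genes 17 were below 0 and none was called, with a median of -0.13. In BRQ+PD-1 against PD-1, 5 of them fell (against 2.66% of all genes) and the median was -0.36. None of 27 hypoxia genes or 18 clock genes was called, and 22 of the hypoxia genes were above 0 (median 0.11). Without BRQ+IgG2a replicate 5, 16 of the 27 hypoxia genes were below 0, with a median of -0.08 and none called. In that fit 2 glycolysis genes rose and 1 fatty acid oxidation gene rose and 1 fell, and the cholesterol synthesis median was 0.23. Without the muscle-rich libraries 18 hypoxia genes were above 0 (median 0.07) and 1 rose, as did 2 genes of glycolysis.

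Some genes of lysosomes and macrophages rose. Of 40 lysosome genes 6 rose and none fell, against 2.96% and 0.493% of all genes, with a median of 0.14, and Psap, Man2b1, Ctss, Ctsh and Grn were among the rises. In the fit without BRQ+IgG2a replicate 5, 6 rose and 1 fell (Ctsl, a cathepsin protease gene), and the median was 0.02. Without the muscle-rich libraries 6 rose and 1 fell as well, with a median of 0.11. Psap, which encodes the saposin precursor, had 1586, 1976 and 2206 CPM in BRQ+IgG2a and 1207, 1370.2 and 1621 CPM in IgG2a (0.46 ± 0.10, edgeR adjusted p 0.0102). Ctss, a protease of antigen-presenting cells, had 237, 521 and 777 CPM in BRQ+IgG2a and 208, 249 and 447 CPM in IgG2a (0.95 ± 0.23, 0.0205). Both overlapped between groups, and Ctss was called in 7 of the 12 fits that left out 1 library. Ctss also belongs to the antigen presentation list, 1 of the immune lists. Of 23 monocyte and macrophage genes 8 rose, none fell and 1 was below 0, against 2.96%, 0.493% and 51.5% of all genes. Their median was 0.49. The summed level of that list was 1498 to 3686 CPM in BRQ+IgG2a and 1630 to 2579 CPM in IgG2a, and its part in the lysosome rises was not tested. Cybb, the catalytic subunit of the phagocyte oxidase, had 81.0, 135 and 198 CPM in BRQ+IgG2a, against 51.9, 55.9 and 68.4 CPM in IgG2a, without overlap (1.27 ± 0.18, edgeR adjusted p 0.000414). Mpeg1, a pore-forming protein of macrophages, had 252, 363 and 471 CPM in BRQ+IgG2a and 163, 191 and 228 CPM in IgG2a (0.92 ± 0.13, 0.000414).

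Slc11a1, the phagosomal metal transporter NRAMP1, had 30.8, 44.3 and 56.8 CPM in BRQ+IgG2a and 13.5, 19.2 and 28.0 CPM in IgG2a, without overlap (1.13 ± 0.27, edgeR adjusted p 0.0183). With Scara5 it made the 2 rises among 27 genes of ferroptosis and iron handling. Of the macrophage list, Cd300a, an inhibitory receptor gene, rose by 1.002 ± 0.17 (0.00113) and Cd86, a costimulatory ligand gene, by 0.78 ± 0.14 (0.00225). In the complement list 4 of 26 rose and 1 fell, and in the cytokine and chemokine list 6 of 36 rose and none fell, against 2.96% and 0.493% of all genes. These counts were 7 and 1, and 8 and 3, without BRQ+IgG2a replicate 5, against 4.99% and 2.25%. Some rises over all tumours also belong to the immune lists: Itgax of the complement list, and Cxcl9 and Ccl5 of the cytokine and chemokine list. Itgax, the CD11c integrin of complement receptor 4, had 34.3, 84.8 and 93.7 CPM in BRQ+IgG2a and 21.0, 29.6 and 40.3 CPM in IgG2a (1.31 ± 0.26, edgeR adjusted p 0.00581). The chemokine genes Cxcl16 and Ccl3 rose by 0.77 ± 0.17 and 1.46 ± 0.33 (0.0117 and 0.0139). These 6 genes were not called in BRQ+PD-1 against PD-1, with log2 fold changes of 0.37 (Slc11a1), 0.09 (Cd300a), 0.32 (Cd86), 0.35 (Itgax), 0.25 (Cxcl16) and 0.58 (Ccl3). The interaction test, given with the second comparison, called none of them.

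Markers within the macrophage and granulocyte lists went different ways. Among 27 markers of resident-type macrophages 1 rose, and Fcna, the complement lectin ficolin A, fell. Of the 27, 14 were above 0 and 13 below, with a median of 0.11. Without BRQ+IgG2a replicate 5, 4 of them rose and 1 fell (against 4.99% and 2.25% of all genes). Without the muscle-rich libraries 2 rose and 1 fell (against 3.57% and 0.494%). Fcna had 0.508, 1.72 and 2.94 CPM in BRQ+IgG2a and 3.24, 7.42 and 20.3 CPM in IgG2a, without overlap, and changed by -2.44 ± 0.54 (edgeR adjusted p 0.0117). Folr2 and Pf4 of the same list had -0.91 and -0.59 (edgeR adjusted p 0.0901 and 0.081). Csf3r, the G-CSF receptor gene, was the 1 rise among 20 neutrophil genes (1.03 ± 0.24, 0.0158). Of 16 mast cell genes 2 were below 0, against 51.5% of all genes, and 5 were without BRQ+IgG2a replicate 5. Their median was 0.46, and 0.05 without that tumour. Gata2 of that list, a transcription factor of several blood and vessel lineages, fell (-0.37 ± 0.10, edgeR adjusted p 0.0337). None of 25 fibroblast, 35 collagen and matrix or 32 endothelial genes was called, and none of 28 genes of lipid-associated and suppressive macrophages. With BRQ+IgG2a replicate 5 left out, 2 collagen and matrix genes fell (Col18a1 and Col4a1), and Ctsl fell in the last list. Of the 32 endothelial genes 27 were below 0, against 51.5% of all genes, and 30 were without that tumour. Without the muscle-rich libraries, 12 of 31 endothelial genes were below 0, with a median of 0.06. Of 21 genes of metalloproteinases and their inhibitors, Mmp25, a leukocyte protease gene, and Timp3, an inhibitor, rose by 1.99 ± 0.34 and 0.82 ± 0.22 (edgeR adjusted p 0.00152 and 0.0373), Timp3 in 3 of the 12 fits that left out 1 library.

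Of the rises outside the immune lists, several are in none of the other leukocyte lists either. That does not place them outside leukocytes, and the cells they came from were not tested. Scara5, a scavenger receptor that takes up ferritin, had 32.5, 44.5 and 92.3 CPM in BRQ+IgG2a and 1.15, 2.76 and 9.98 CPM in IgG2a. Ptgfrn, a tetraspanin-associated membrane protein gene, had 185, 254 and 292 CPM in BRQ+IgG2a and 68.3, 97.1 and 132 CPM in IgG2a. Enpp5, an ectonucleotidase-family gene, had 14.2, 18.2 and 33.1 CPM in BRQ+IgG2a and 5.48, 6.36 and 8.46 CPM in IgG2a. Every BRQ+IgG2a tumour was above every IgG2a tumour for these 3 genes. The changes were 3.89 ± 0.53 for Scara5 (edgeR adjusted p 0.000414), 1.30 ± 0.19 for Ptgfrn (0.000414) and 1.61 ± 0.21 for Enpp5 (0.00025). Their changes in BRQ+PD-1 against PD-1 were 3.14 ± 0.52, 1.61 ± 0.19 and 1.15 ± 0.21 (edgeR adjusted p 0.00228, 0.000118 and 0.00351).

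Cysltr2, a cysteinyl leukotriene receptor gene, had 2.61, 3.35 and 5.08 CPM in BRQ+IgG2a and 0.576, 0.80 and 1.24 CPM in IgG2a (2.02 ± 0.25, edgeR adjusted p 0.00025). Prex1, a Rac exchange factor gene, had 82.6, 86.0 and 116 CPM in BRQ+IgG2a, against 45.4, 50.0 and 56.9 CPM in IgG2a (0.86 ± 0.11, 0.00025). Meiob, a meiotic recombination gene, had 1.32, 2.42 and 4.02 CPM in BRQ+IgG2a and 0.107, 0.404 and 0.70 CPM in IgG2a (2.57 ± 0.40, 0.00085). None of these 3 overlapped between groups. Scml4, a Polycomb-family gene, had 4.91, 6.999 and 29.1 CPM in BRQ+IgG2a and 0.98, 1.88 and 3.98 CPM in IgG2a, without overlap. Iglon5, a neural cell adhesion gene, had 0.918, 3.96 and 9.04 CPM in BRQ+IgG2a and 0.367, 0.744 and 1.49 CPM in IgG2a, with overlap. Scml4 changed by 2.33 ± 0.40 (edgeR adjusted p 0.00171), or 1.71 without BRQ+IgG2a replicate 5, its highest tumour, and Iglon5 by 2.44 ± 0.47 (0.00384). Cysltr2, Prex1, Meiob, Scml4 and Iglon5 were all called higher in BRQ+PD-1 against PD-1, at 1.33, 0.65, 1.64, 2.81 and 2.80 (edgeR adjusted p 0.00456, 0.00268, 0.0181, 0.000729 and 0.00244).

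Cyfip2, a regulator of branched actin, had 11.8, 16.1 and 25.5 CPM in BRQ+IgG2a, against 3.995, 4.72 and 8.02 CPM in IgG2a (1.73 ± 0.24, edgeR adjusted p 0.000398). Tent5a, a poly(A) polymerase gene, had 52.7, 57.6 and 79.97 CPM in BRQ+IgG2a and 28.5, 31.8 and 34.6 CPM in IgG2a (0.95 ± 0.13, 0.000398). Sh3rf3, a SH3-domain ubiquitin ligase gene, had 1.07, 3.09 and 5.94 CPM in BRQ+IgG2a and 0.138, 0.598 and 1.03 CPM in IgG2a (2.44 ± 0.48, 0.00442). None of the 3 overlapped between groups. Fam49a rose by 1.23 ± 0.18 (edgeR adjusted p 0.000422), and Gvin1, an interferon-inducible GTPase gene with near-identical copies that make its counts uncertain, by 1.504 ± 0.20 (0.000276). Tent5a and Gvin1 were called higher in BRQ+PD-1 against PD-1 too (0.50 ± 0.13 and 0.69 ± 0.20, edgeR adjusted p 0.0294 and 0.0432). Cyfip2, Sh3rf3 and Fam49a were not, at 0.28 ± 0.23, 1.33 ± 0.45 and 0.45 ± 0.18 (0.508, 0.0864 and 0.136).

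**Figure D4:**
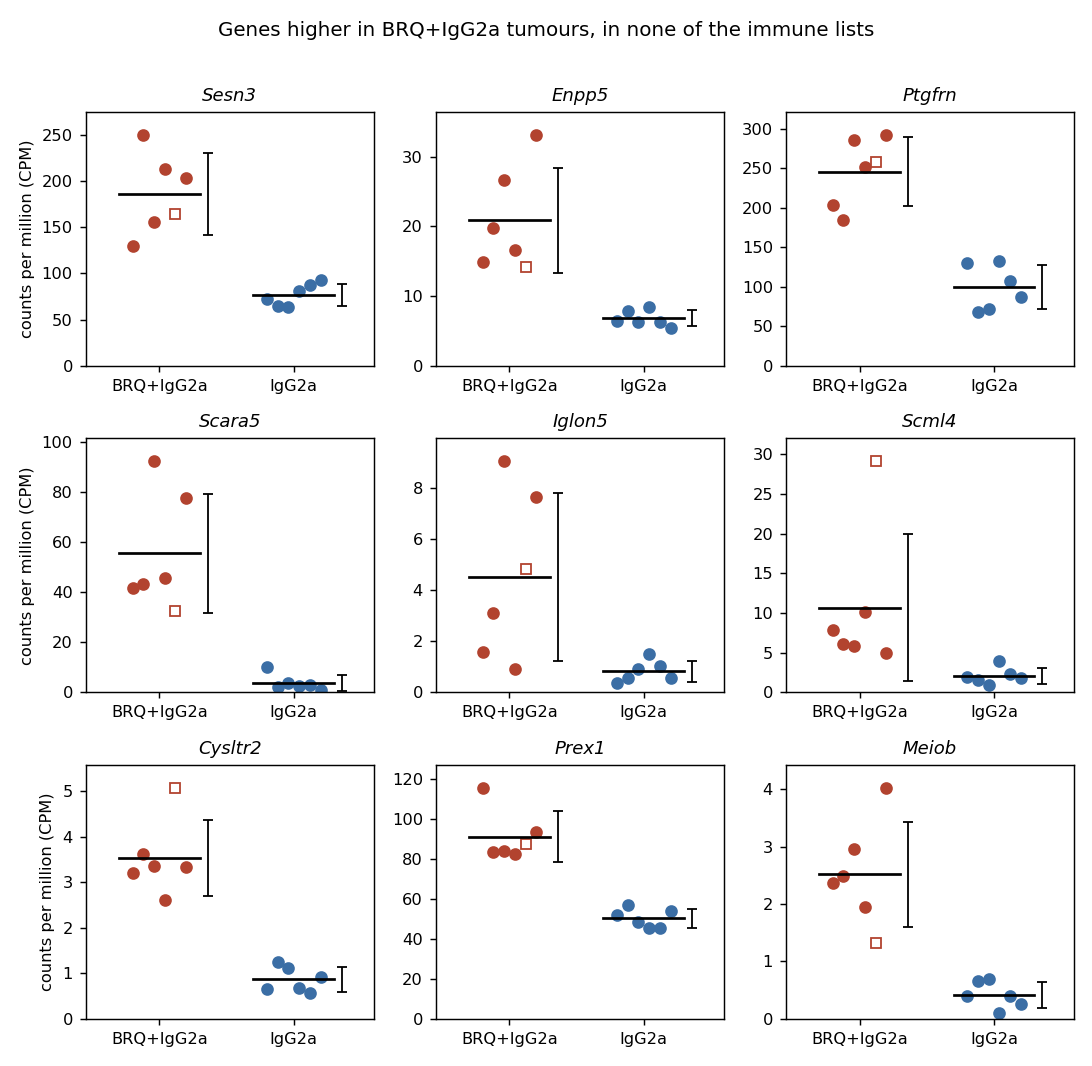
Levels of 9 genes that rose and belong to none of the immune lists, in CPM on the vertical axis of each panel, 1 point per tumour, BRQ+IgG2a (red) left of IgG2a (blue); lines are means, error bars SD (n = 6 each), and the open square is BRQ+IgG2a replicate 5. The groups overlap for Iglon5 and for none of the other 8.

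Other rises outside the immune lists are genes known from lymphocytes or myeloid cells. Slamf7, a receptor of cytotoxic and plasma cells, rose by 2.01 ± 0.29 (edgeR adjusted p 0.000454), Themis, a T cell receptor signalling gene, by 2.44 ± 0.47 (0.00419) and Klrb1b, a natural killer receptor gene, by 2.44 ± 0.42 (0.00171). Cxcr6, a chemokine receptor of T cells, rose by 2.31 ± 0.44 (0.00371), Spn, the leukocyte sialoglycoprotein CD43, by 0.57 ± 0.09 (0.000561), and Apobec1, a cytidine deaminase gene, by 0.92 ± 0.14 (0.000454). Cd96, a receptor of T cells and natural killer cells, rose by 2.24 ± 0.54 (0.0196), with overlap between groups. The T cell list itself had 15 of 26 genes higher with a median of 1.65, and a summed level of 131 to 390 CPM in BRQ+IgG2a and 89.0 to 172 CPM in IgG2a. Its part in these rises was not tested. In BRQ+PD-1 against PD-1, Spn was called (0.34 ± 0.09, edgeR adjusted p 0.0229), and Slamf7, Themis, Klrb1b and Cxcr6 were not, at 0.81, 0.65, 0.79 and 1.09 (0.0987, 0.416, 0.258 and 0.136). Nr3c1, the glucocorticoid receptor gene and the 1 called of 17 in the glucocorticoid list, rose in both comparisons, by 0.40 ± 0.10 (edgeR adjusted p 0.0259) and 0.43 ± 0.10 (0.0179). It was called in 5 of the 12 fits that left out 1 library.

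The 12 tumours of the second comparison gave the same direction for most of these genes. Over all genes, 808 were called there (5.04%). Of the 79 falls, 67 were lower in BRQ+PD-1 than in PD-1 (48.1% of all genes tested were), 26 were called lower (2.66% of all genes) and none was called higher. Their median log2 fold change there was -0.32, against 0.01 over all genes. Genes rich in GC were low against GC-poor genes in BRQ+PD-1 replicates 1 and 2 (log2 differences of -0.635 and -0.263). The other libraries of the series had -0.108 to 0.222, and the falls had a median GC content of 54.1%, against 49.6% over all genes. Without those 2 tumours 64 of the falls were lower and 19 were called lower. With a GC content offset these counts were 66 and 26. Of the 365 rises outside the immune lists, 346 were higher in BRQ+PD-1 (51.9% of all genes tested) and 70 were called (2.38%), with a median of 0.40, against 1.04 in BRQ+IgG2a against IgG2a. The 110 rises in the immune lists had 106 higher and 2 called, with a median of 0.37, against 1.45. Whether these 2 sets of rises differ in their second comparison was not tested. The interaction of brequinar with the antibody called 0 of 16029 genes by edgeR, with 1222 at an unadjusted p under 0.05. DESeq2 called 13 and limma voom with quality weights 272. Selecting genes in the first comparison favours large values there, so the smaller medians of the second are no measure of a weaker effect. The 2 comparisons also share 1 fit, with 1 estimate of each gene's spread. Genes of low spread pass the test more easily in both, so the shares over all genes are no matched baseline for these calls.

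**Figure D5:**
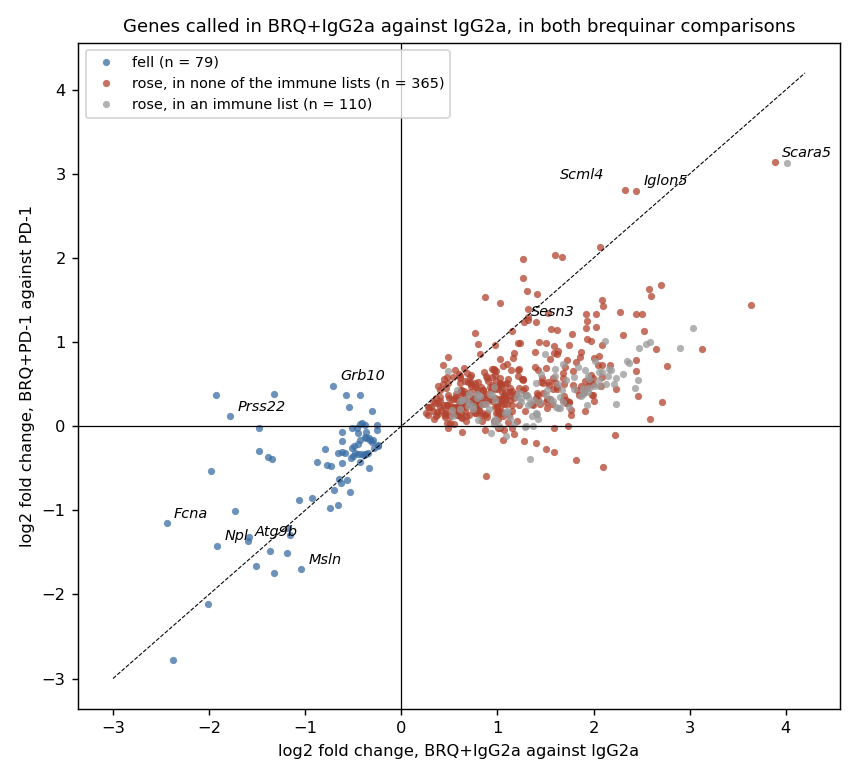
Log2 fold change of the 554 called genes in BRQ+IgG2a against IgG2a (horizontal axis) and in BRQ+PD-1 against PD-1 (vertical axis), which share no tumours; blue points fell, red points rose outside the immune lists, grey points rose within them, and the dashed line marks equal values. Scara5, Iglon5 and Scml4 lie high on both axes, Msln below the dashed line, and Grb10 among the falls above 0 on the vertical axis.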

How the data were processed

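RNA from D4M tumours was sequenced as 1 library per tumour, 6 in each of 4 groups. Per the submitters' processing notes the tools included Trim Galore 0.6.7, HISAT2 2.2.1 and StringTie 2.2.1 with build GRCm39; the sources used here name no counting program, annotation or strand setting. The deposited table holds whole-number counts from the authors for 55414 Ensembl genes, not normalized, and each column matched 1 sample by its title. Deposited FPKM and TPM tables were not used here.

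Counts were fitted with edgeR 4.0.16 (R 4.3.3), TMM normalization, filterByExpr and quasi-likelihood F tests with robust dispersions. One model held the 4 group means of the 24 libraries, leaving 20 degrees of freedom. Benjamini-Hochberg adjustment covered the 16029 genes tested, and genes under 0.05 were called. CPM values are TMM-scaled, and log2 fold changes carry the SE implied by the F statistic. The depth of 21.57 to 29.39 M counts in the 12 libraries puts 1 CPM at about 22 to 29 reads. Reads of near-identical family members or overlapping antisense genes may be shared, so single values of such genes are uncertain. Symbols were matched by Ensembl ID for 15980 of the genes tested.

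Genes were named by rule, leaving out predicted genes and those under a mean of 1 CPM: the 20 falls with the smallest adjusted p and the 10 largest, 15 and 10 rises outside the immune lists, up to 3 called members of each other list, and Dhodh, Cad, Umps, Mitf, Myc, Mki67, Braf and Chka. Some genes the rule names are not reported here. Members and the 61 gene lists were chosen with earlier results of these data known. Alternatives were relative log expression and upper quartile factors, no filter, DESeq2 1.42.0, limma 3.58.1 voom with quality weights, a fit without robust dispersion, the 12 libraries alone, a replicate block, libraries left out, and, added after seeing the data, a GC content offset and a fit without BRQ+PD-1 replicates 1 and 2.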

Additional observations from a re-analysis of the deposited data

Results flagged for a closer look

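In 23 of 170 gene and group pairs looked at, 1 tumour of the 6 lay apart from the others, by a gap to its neighbour above the 95% critical value of Dixon's test. Chance gives this in about 1 in 20 groups of independent, normally spread values. CPM values need not be normal, and the pairs come from the same tumours, so that rate is no baseline for the 23. BRQ+IgG2a replicate 5 was the tumour apart in 8 pairs. It was the highest of its group for Rapgef3 (76.3 CPM, next 47.3), Scml4 (29.1, next 10.1), Lpin3 (6.75, next 4.12), Mitf (42.0, next 18.5), Braf (74.4, next 53.1) and Chka (65.8, next 45.1), and the lowest for Slc29a3 (39.3 CPM, next 61.8) and Mki67 (124, next 265).

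Among the other BRQ+IgG2a tumours, replicate 6 was lowest for Adh7 (3.47 CPM, next 4.94), replicate 1 highest for Prex1 (116, next 93.5) and replicate 3 highest for Cd300e (13.4, next 3.90). Cd300e, a myeloid receptor gene, had a log2 fold change of 2.51 (edgeR adjusted p 0.0466) and was called in 3 of 12 fits that left out 1 library.

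Among IgG2a tumours, replicate 2 was highest for Themis (1.42 CPM, next 0.373), Cmpk2 (18.6, next 8.43), Mmp25 (5.22, next 2.67), C1ra (81.1, next 54.6) and Cxcl9 (125, next 61.0), and lowest for Cad (78.6, next 104). Replicate 1 was highest for Scara5 (9.98 CPM, next 3.64), Timp3 (62.0, next 38.8) and Dhodh (17.4, next 13.7), replicate 3 for Aif1l (29.0, next 24.3), and replicate 4 for Adm2 (5.97, next 2.25) and Cd300e (2.77, next 0.934). What sets these tumours apart was not tested.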

How the results depend on the processing

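For BRQ+IgG2a against IgG2a, the 554 calls were 361 with a replicate block, 337 from the 12 libraries alone, 888 by DESeq2 and 2113 by limma voom, and 258 to 1179 when 1 library was left out. The 475 rises were 291 from the 12 libraries alone and 1347 by voom, and 232 to 813 when 1 library was left out. The 79 falls were 42 with the block, 46 from the 12 libraries alone, 188 by DESeq2 and 766 by voom, and 26 (without BRQ+IgG2a replicate 6) to 366 (without BRQ+IgG2a replicate 5) when 1 library was left out. Rises made up 85.7% of calls, 78.8% by DESeq2, 63.8% by voom and 69.0% without BRQ+IgG2a replicate 5. The cause of these shifts was not tested.

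For BRQ+PD-1 against PD-1, the 808 calls were 431 with no expression filter, 411 with the block, 502 without the muscle-rich libraries, 531 without BRQ+PD-1 replicates 1 and 2, 2194 by voom and 1406 by DESeq2. The falls called lower there (26) were 17 with the block. The rises called higher (72) were 47 with the block and 125 by voom. Those outside the immune lists (70) were 46 and 116, and those within them (2) were 1 with no filter, 1 with the block and 9 by voom. The interaction called 1 gene without the muscle-rich libraries, 272 by voom and 13 by DESeq2. The replicate numbers did not pair the tumours: same-numbered BRQ+IgG2a and IgG2a tumours correlated at -0.64 to 0.395, and 14 of the 77 called genes named by the rule missed the threshold under the block.

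No called gene named by the rule changed sign under the alternatives followed gene by gene, which leave out upper quartile factors, no filter, no robust dispersion, voom and the fit without BRQ+PD-1 replicates 1 and 2. Of genes that were not called, Mitf ranged from -0.0542 (without BRQ+IgG2a replicate 5) to 0.459 when 1 library was left out, and Braf had -0.00269 without the muscle-rich libraries. Of the 77 called genes, 54 kept the call without BRQ+IgG2a replicate 6, the fewest of the 12 libraries left out, 65 without the muscle-rich libraries, 71 with the GC offset and 77 with DESeq2. The falls had a median transcript GC content of 54.1%, the rises 47.8% and all genes 49.6%; with the offset 567 genes were called. At these depths, changes of genes under about 1 CPM rest on fewer than about 30 reads per tumour.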
